A study of Mus musculus with 4 samples.

Results

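The NRF2 antioxidant response was followed through 10 genes: the transcription factor gene Nfe2l2, its inhibitor Keap1, the autophagy receptor Sqstm1, and the target genes Hmox1, Nqo1, Gclc, Gclm, Slc7a11, Txnrd1 and Srxn1. They were chosen by name, out of 21463 mouse protein-coding genes, and for each one every accessible region was read from 10 kb before the 5′ end of the gene to its 3′ end. A promoter peak was a peak whose summit lay within 1 kb of an annotated transcription start. The data were ATAC-seq peak lists from RAW264.7 cells, a mouse macrophage line, in which the Tn5 transposase cuts open chromatin and so marks it for sequencing. Control cells (2 libraries) were given DMSO, the solvent, and treated cells (2 libraries) 40 ug/mL of the plant coumarin esculetin. Cells of both groups were of wild-type genotype and were loaded with 25 ug/mL DIL-oxLDL, an oxidized low-density lipoprotein that carries a fluorescent dye, for 24 h. All 4 libraries therefore came from lipid-loaded cells of 1 cell line, and the comparison asked how esculetin altered chromatin accessibility on that background.

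NRF2, the protein made from Nfe2l2, is a basic leucine zipper factor that KEAP1 holds in the cytoplasm and passes to a CUL3 ubiquitin ligase for degradation. Oxidants and electrophiles modify KEAP1, whereupon NRF2 accumulates, pairs with small MAF proteins and binds antioxidant response elements near genes for glutathione synthesis, thioredoxin reduction, quinone reduction and heme breakdown. In macrophages, oxidized lipoproteins are a well-known inducer of this pathway.

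The promoters of the genes on which the results turn are shown first, as 250 bases that end just before the start, from the RefSeq annotation of GRCm38.p6 (the assembly behind mm10, with the same primary chromosomes). Nfe2l2 (chr2:75704664-75704913, minus strand), Gclm (chr3:122245307-122245556, plus strand) and the start of Txnrd1 that lies inside the gene (chr10:82858956-82859205, plus strand) had a peak in every library, and Srxn1 (chr2:152105274-152105523, plus strand) had one in 3 libraries. All are written 5′ to 3′ on the strand of the gene. Capitals mark the core of the antioxidant response element, TGACNNNGC on either strand, in the first 3 sequences and the related AP-1 type core, TGANTCA, in the last.
Nfe2l2: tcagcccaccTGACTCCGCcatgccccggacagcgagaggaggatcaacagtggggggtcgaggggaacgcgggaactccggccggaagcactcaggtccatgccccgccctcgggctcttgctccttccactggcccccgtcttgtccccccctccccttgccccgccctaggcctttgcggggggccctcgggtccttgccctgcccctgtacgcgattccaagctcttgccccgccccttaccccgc
Gclm: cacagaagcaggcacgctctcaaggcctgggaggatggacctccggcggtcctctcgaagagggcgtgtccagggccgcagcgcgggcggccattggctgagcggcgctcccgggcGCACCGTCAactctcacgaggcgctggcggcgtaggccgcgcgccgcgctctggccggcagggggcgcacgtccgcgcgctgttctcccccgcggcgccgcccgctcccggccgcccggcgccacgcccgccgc
Txnrd1: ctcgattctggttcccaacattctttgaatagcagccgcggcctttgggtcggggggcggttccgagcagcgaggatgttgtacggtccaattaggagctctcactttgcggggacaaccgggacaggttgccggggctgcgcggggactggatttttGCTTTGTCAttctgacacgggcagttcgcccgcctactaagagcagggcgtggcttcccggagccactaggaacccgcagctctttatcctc
Srxn1: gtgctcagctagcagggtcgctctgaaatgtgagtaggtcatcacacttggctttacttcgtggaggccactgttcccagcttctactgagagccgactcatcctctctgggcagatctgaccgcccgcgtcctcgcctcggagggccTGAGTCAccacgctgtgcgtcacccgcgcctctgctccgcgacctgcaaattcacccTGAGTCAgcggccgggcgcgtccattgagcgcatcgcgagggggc

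The promoter table held 8 of the 10 genes, and 4 of these 8 had the TGACNNNGC core within the 300 bases it gives around a start (250 before and 50 after). The core was found in 14.8% of the 17491 protein-coding genes of the table and in 13.0% of their 21262 promoters, some genes having several. In Nfe2l2 it began 240 bp before the start, in Gclm 134 bp and in Txnrd1 92 bp before it, and in Srxn1 it began 28 bp after the start and so lies outside the printed bases. The Srxn1 promoter also held 2 copies of TGANTCA, at 102 and 45 bp before the start, a motif present in 8.12% of all genes of the table. None of the other 7 genes in the table held TGANTCA. The TGACNNNGC letters were not in the windows of Keap1, Nqo1, Slc7a11 or Sqstm1. For Slc7a11 the table held only the start that lies inside the gene, so its outermost start was not searched. GC content ran from 44.7% in Slc7a11 to 79.7% in Gclm, beside a median of 56.3% over all promoters. The GGGCGG box, which Sp1-type factors bind, was present in 7 of the 8 genes and in 49.2% of all genes of the table, and the CCAAT box in 3 of the 8 and in 42.3%. Both strands were searched for each motif, and the response element and AP-1 type cores, which can share bases, did not overlap in these promoters. These matches describe the sequence and do not mark bound sites.

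The 4 peak lists differed in length before any gene was looked at. Control replicates 1 and 2 held 19595 and 27833 peaks, and esculetin replicates 1 and 2 held 8677 and 12792. The records of the libraries labelled esculetin replicates 1 and 2 carried the library names E2 and E3. Read totals are not in the lists, and the background coverage solved from the peak statistics was 6.51, 4.08, 4.97 and 4.10 (reads or fragments over a base, as MACS2 piled them up) in the order control 1, control 2, esculetin 1 and esculetin 2. At that background the lowest summit that entered a list was 2.61, 3.19, 3.02 and 3.17 times the background, in the same order. Of 10 macrophage markers, Spi1 had a promoter peak in all 4 libraries, 6 had one in at least 1 library, and the genes with none included Csf1r, Adgre1 and Itgam. Of 25 markers of epithelial, lymphoid, stromal and liver cells none had a promoter peak in any library, although 12 had some peak elsewhere in their windows. Calls at both marker sets were also fewer under esculetin: 1 and 3 macrophage markers had a promoter peak, beside 5 and 6 under DMSO, and 1 and 1 of the other markers had a window peak, beside 5 and 7. Promoter peaks were called in 30.1% and 37.9% of all protein-coding genes under esculetin and in 40.7% and 42.1% under DMSO. In such bulk libraries, fewer cells with an open site and less opening in each cell cannot be told apart, and an absent call does not show closed chromatin.

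Fewer of the antioxidant genes had a promoter peak after esculetin. Of the 10 genes, 8 and 9 had such a call under DMSO (replicates 1 and 2), whereas 4 and 7 had one under esculetin (replicates 1 and 2). The mean was 8.50 ± 0.707 genes in control and 5.50 ± 2.12 in esculetin libraries (SD, n = 2), and the groups did not overlap. Over all protein-coding genes the called share was 40.7% and 42.1% under DMSO and 30.1% and 37.9% under esculetin, so the 10 genes were called more often than the average gene in every library. The loss lay in the same direction as the list lengths. When each list was reduced to its 8677 strongest peaks, 5 and 2 of the 10 genes kept a promoter peak under DMSO and 4 and 4 did so under esculetin, which turned the difference of the means from -3.00 to 0.500. In the same reduced lists 27.8% and 19.6% of all protein-coding genes had a promoter peak under DMSO and 30.1% and 32.6% under esculetin, so that all genes turned the same way. Without esculetin replicate 1, the library with the shortest list, the difference was -1.50.

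**Figure D1:**
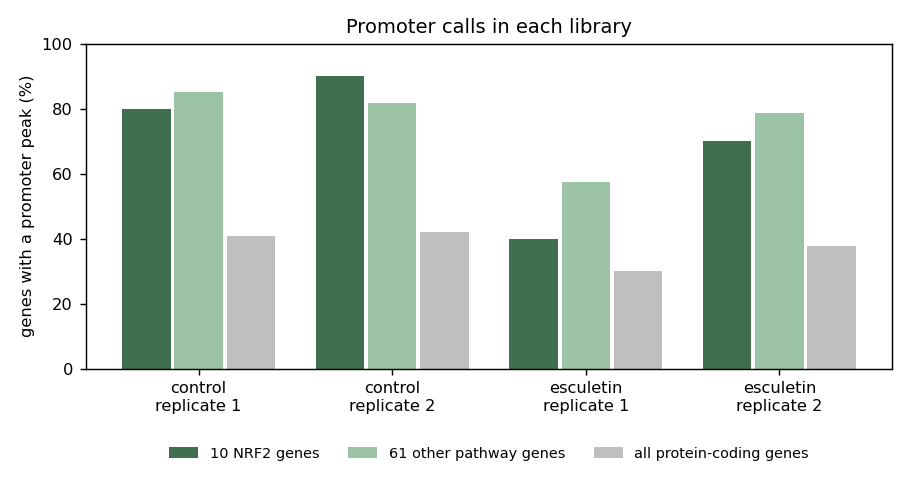
Percentage of genes with a promoter peak (vertical axis) in each of the 4 libraries (horizontal axis), for the 10 NRF2 genes, 61 other genes of the pathway and all 21463 protein-coding genes. Bars for the 10 genes stand above those of all genes in every library, and esculetin replicate 1 has the lowest bar in each set.

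By pattern, Nfe2l2, Gclm and Txnrd1 (3 of 10) had a promoter peak in all 4 libraries, beside 26.9% of all protein-coding genes. Keap1, Hmox1 and Slc7a11 (3 of 10) had one in both control libraries and in neither esculetin library, a pattern found in 3.75% of all protein-coding genes and in 7.93% of the 10133 genes called in at least 1 library. None of the 10 had the opposite pattern, which 0.419% of all genes showed. Among the 8677 strongest peaks of each list none of the 10 had the control-only pattern: Hmox1 was kept in control replicate 1 alone, Keap1 and Slc7a11 were in no list, and 1 gene, Gclc, was called in both esculetin libraries only. All protein-coding genes also turned toward esculetin in these reduced lists (27.8% and 19.6% called under DMSO, 30.1% and 32.6% under esculetin). The share of all genes with either pattern there was not computed, so nothing about the 10 genes is read from these counts. In the full lists the remaining 4 genes had mixed patterns: Srxn1 and Sqstm1 were called in both controls and esculetin replicate 2, Gclc in control replicate 2 and both esculetin libraries, and Nqo1 in esculetin replicate 2 alone. The strength of a called peak was read as its percentile, the share of peaks in the same list with a lower -log10 p, which sets aside the length of the list only in part, because a longer list adds weak peaks at its bottom. Among the 5774 genes called in all 4 libraries, the percentile was higher in both esculetin than in both control libraries for 14.5% and lower for 30.0%, and the median difference was -4.47 points.

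**Figure D2:**
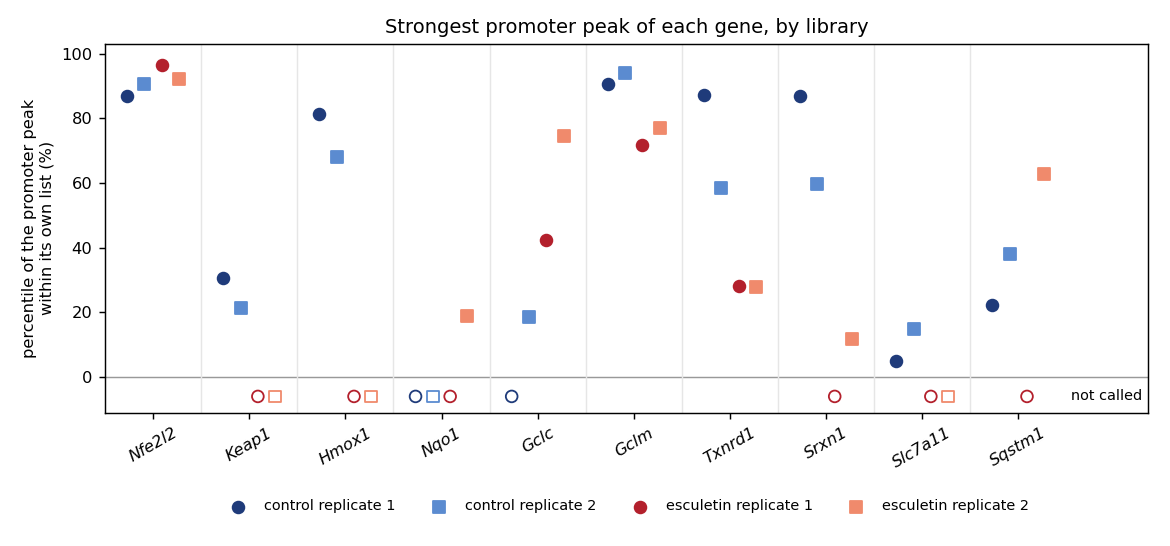
Percentile of the strongest promoter peak within its own list (vertical axis, %) for each of the 10 genes (horizontal axis) in the 4 libraries; open symbols under the line at 0 mark libraries with no promoter peak. Nfe2l2 lies above 86 in every library, Gclm and Txnrd1 lie lower in both esculetin libraries, and Keap1, Hmox1 and Slc7a11 have open symbols for both esculetin libraries.

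Nfe2l2 itself kept one of the strongest promoters of the set under both treatments. Its peak spanned the start (chr2:75704334-75705154, 821 bp) with the summit 14 to 44 bp inside the gene. The percentile was 86.9 and 90.7 under DMSO and 96.4 and 92.3 under esculetin, each pair given as replicate 1 and replicate 2. Both esculetin values thus lay above both control values. The means were 88.8 ± 2.66 and 94.4 ± 2.86 (SD, n = 2), a difference of 5.57 points with p = 0.33 in the exact two-sided permutation test, which is the smallest p that 2 against 2 libraries allow. Without esculetin replicate 1 the difference was 3.55, and without control replicate 1 it was 3.69. It was 7.46 without control replicate 2 and 7.60 without esculetin replicate 2. With fold over background as the ranked value the difference was 12.5, and among equal numbers of top peaks it was 22.3. Ranked only among promoter peaks of genes called in every library, the difference was 14.7, but the groups then overlapped (exact permutation p = 0.67). No all-gene difference was computed for these alternatives. Summit coverage, solved from the fold and p of each peak, was 58 and 61 in control and 69 and 59 in esculetin libraries. Taken over the genome-wide background, these heights were 8.91, 15.0, 13.9 and 14.4 times, so that on this scale the groups overlapped and control replicate 1 alone was low. Nfe2l2 had a second promoter peak 836 bp inside the gene in control replicate 1 and esculetin replicate 2, and this smaller peak reached percentiles of 18.0 and 34.8.

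Over the 4 libraries the percentiles of Nfe2l2 were closest to those of Hinfp, Zmym5 and Zmym2, among 5773 other genes called in all 4. The mean absolute difference from Nfe2l2 was 1.03 points for Hinfp, 1.18 for Zmym5 and 1.23 for Zmym2. This likeness rests on 4 values per gene.

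Keap1, the sensor that targets NRF2 for degradation, had a weak promoter peak in control cells only. Its summit lay 496 bp inside the gene in control replicate 1 and 488 bp inside it in control replicate 2 (merged region chr9:21238682-21238998), at percentiles of 30.7 and 21.5 and at 5.69 and 6.13 times the background. A still weaker peak 138 bp inside the gene was called in control replicate 2 alone, at a percentile of 2.11. Neither esculetin library had a peak anywhere in the Keap1 window. At sites with a similar local background the lowest summits listed in the esculetin libraries were at 4.03 and 4.39 times the background, not far under the control heights.

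Sqstm1 encodes p62, which binds KEAP1 and draws it into autophagy. Its promoter percentile was 22.4 and 38.2 in the control libraries and 62.9 in esculetin replicate 2, and no promoter peak was called in esculetin replicate 1. The 1 esculetin value lay above both control values, while the other esculetin library had none. Summit positions differed: 16 bp inside the gene in control replicate 1, and 569 and 567 bp inside it in control replicate 2 and esculetin replicate 2. A separate region 2357 bp before the 5′ end (chr11:50212969-50213315) was called in all 4 libraries. Its percentile was 18.1 and 16.8 under DMSO and 34.1 and 60.6 under esculetin, so both esculetin values were the higher. The means were 17.4 ± 0.957 and 47.4 ± 18.8 (SD, n = 2), a difference of 29.9 points (exact permutation p = 0.33). As heights over the background the values were 5.22, 6.86, 6.84 and 9.76 times, where control replicate 2 and esculetin replicate 1 were nearly level, so that no separation was read from this scale. Farther out, a region 7253 bp before the 5′ end was called in both controls only, at percentiles of 59.9 and 60.5.

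Hmox1, which encodes the heme oxygenase that degrades heme to biliverdin, iron and carbon monoxide, had the strongest of the control-only promoter peaks. The peak sat on the start itself (chr8:75093460-75093820), with its summit 2 and 3 bp inside the gene in control replicates 1 and 2. Its percentile was 81.3 and 67.9, and its height 7.38 and 8.82 times the background. No peak was called there in either esculetin library. At sites with a similar local background those libraries listed summits down to 3.62 and 3.90 times the background, under the height seen in either control. Hmox1 ranked 3659 by strength in the list of control replicate 1 and 8924 in that of control replicate 2, so that with 8677 peaks per list it was called in control replicate 1 alone. A call in both libraries of 1 group and neither of the other has p = 0.33 in the exact permutation test, the smallest that the design allows. A distal region 9604 bp before the 5′ end (chr8:75083818-75084187) was called in both controls at percentiles of 81.1 and 53.4 and in esculetin replicate 2 at 42.6, but not in esculetin replicate 1. The upstream region of Hmox1 was therefore still called in 1 esculetin library whose promoter peak was missing.

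Nqo1, a quinone reductase and a classic NRF2 target, had a promoter call in the fewest libraries. A promoter peak was called in 1 library, esculetin replicate 2, 435 bp inside the gene, at a percentile of 18.9 and with a summit coverage of 21. The only other peak in its window, in control replicate 2 at a percentile of 87.1, lay 9877 bp before the 5′ end and inside the neighbouring gene Nob1.

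Gclc and Gclm encode the catalytic and modifier subunits of glutamate-cysteine ligase, the rate-limiting enzyme of glutathione synthesis, and by percentile their promoter peaks differed between the groups in opposite directions. At Gclc the promoter peak (chr9:77754369-77754906) was missing from control replicate 1, had a percentile of 18.5 in the other control library, and had percentiles of 42.5 and 74.5 under esculetin. It was the one gene of the 10 called in both esculetin libraries and missing from a control library. Its height was 6.86 times the background in control replicate 2 and 6.24 and 10.5 times in the esculetin libraries, so the groups overlapped on that scale. In control replicate 1, at a similar local background, summits down to 3.84 times the background were listed.

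A region 3946 bp before the 5′ end of Gclc (chr9:77750417-77751059) went the other way and was called in all 4 libraries. Its percentile was 63.8 and 63.5 under DMSO and 29.4 and 1.44 under esculetin, and both esculetin values lay below both controls. The means were 63.7 ± 0.230 and 15.4 ± 19.8 (SD, n = 2), a difference of -48.3 points (exact permutation p = 0.33). The heights, 6.45 and 9.81 times the background under DMSO and 5.64 and 4.63 times under esculetin, did not overlap either. Within 1 gene the distal region was thus lower after esculetin while the promoter peak was called more often.

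At Gclm the promoter percentile was 90.7 and 94.0 in control and 71.8 and 76.9 in esculetin libraries. All 4 values were high, and both esculetin values lay below both controls. The means were 92.3 ± 2.33 and 74.3 ± 3.56 (SD, n = 2), a difference of -18.0 points (exact permutation p = 0.33). Summit coverage was 70 and 74 in control and 47 and 44 in esculetin libraries, or 10.8, 18.1, 9.46 and 10.7 times the background, where control replicate 1 (10.76) and esculetin replicate 2 (10.73) were nearly level, so that no separation of the groups was read from this scale. With the fold over background in place of the p as the ranked value, the groups did overlap. The summit also stood at different places: 111 and 105 bp before the nearer start in the controls, and 143 bp and 8 bp after the nearer start in esculetin replicates 1 and 2. Gclm has annotated starts 70 bp apart, and a lncRNA, Gm46822, overlaps the region. A peak inside the gene 11503 bp from its 5′ end was called in both controls with a percentile of 99.8 in control replicate 2 and a lower one in control replicate 1, but it falls on the pseudogene Gm6061. Multiply mapped reads had been discarded, and whether this peak holds reads from a gene copy was not tested.

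Slc7a11, the cystine importer that supplies glutathione synthesis, had only faint promoter peaks, all at the start that lies inside its annotated span. Control replicates 1 and 2 had percentiles of 4.84 and 15.0, with summits 519 and 10 bp inside the start, in regions that did not touch each other (chr3:50442969-50443191 and chr3:50443437-50443727). Heights were 3.23 and 4.66 times the background, beside listing limits of 3.02 and 3.17 times in the esculetin libraries, neither of which had a promoter peak. The control-only pattern of Slc7a11 therefore rests on peaks close to the lowest height that was listed. A stronger region 92125 bp inside the gene was called in both controls only, at percentiles of 62.4 and 54.7, and faint regions at 59919 and 62603 bp were called in esculetin replicate 2 alone, at 7.42 and 0.496.

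Txnrd1, the cytosolic thioredoxin reductase, had the largest difference in percentile among the 3 genes called in all 4 libraries. The peak (chr10:82858849-82859439) lay at a start 25255 bp inside the gene, and its summit in control replicate 1 stood 4 bp from the start of the lncRNA Gm38560. No peak was called at the outermost start. The percentile was 87.3 and 58.6 in control and 28.2 and 27.7 in esculetin libraries. The esculetin values were close together and both below the controls, which were far apart. The means were 73.0 ± 20.3 and 27.9 ± 0.408 (SD, n = 2), a difference of -45.0 points (exact permutation p = 0.33). Heights were 8.30 and 8.58 times the background in control and 5.03 and 5.61 times in esculetin libraries, without overlap. A start 26390 bp inside the gene had a faint second peak in both controls, at percentiles of 1.87 and 16.3, and in neither esculetin library.

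Srxn1, which encodes sulfiredoxin, the enzyme that repairs overoxidized peroxiredoxins, was ordered like Txnrd1 across the libraries that had a peak. Its promoter peak (chr2:152105252-152105864) had a percentile of 87.0 and 59.6 under DMSO and 11.9 in the second esculetin library, and was not called in the first. The heights were 8.61, 9.07 and 4.63 times the background in the libraries that had a peak. Summits lay 87 and 135 bp before the start in the controls and 45 bp before it in esculetin replicate 2, within the printed stretch that holds both TGANTCA motifs. Where the local background was similar, esculetin replicate 1 listed summits down to 4.03 times the background.

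**Figure D3:**
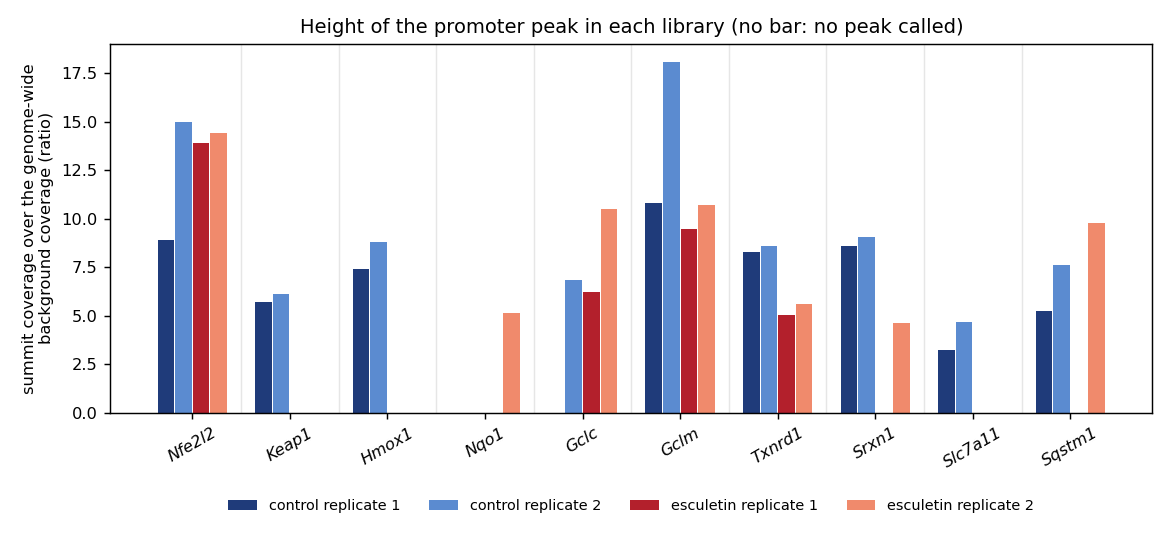
Summit coverage of the strongest promoter peak divided by the genome-wide background coverage of the library (vertical axis, ratio) for each of the 10 genes (horizontal axis) in the 4 libraries; a missing bar means that no peak was called. Txnrd1 bars are lower in both esculetin libraries than in both controls, the Gclm bars of control replicate 1 and esculetin replicate 2 are level, and the Nfe2l2 bars of the groups overlap because control replicate 1 stands at 8.91.

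Of the 3 genes called in all 4 libraries, 1 was higher (Nfe2l2) and 2 were lower (Gclm and Txnrd1) in both esculetin libraries, and their median difference was -18.0 points, beside -4.47 over all genes. A count over 3 genes is too small to be read against the 14.5% higher and 30.0% lower found over all genes. Among the 8677 strongest peaks of each list Txnrd1 could no longer be compared, and the median over the 2 genes left, Nfe2l2 and Gclm, was 5.66. Over the same 3 genes the median was -19.6 without control replicate 1. Gclc could then be compared too, and with it the median over 4 genes was -7.97.

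**Figure D4:**
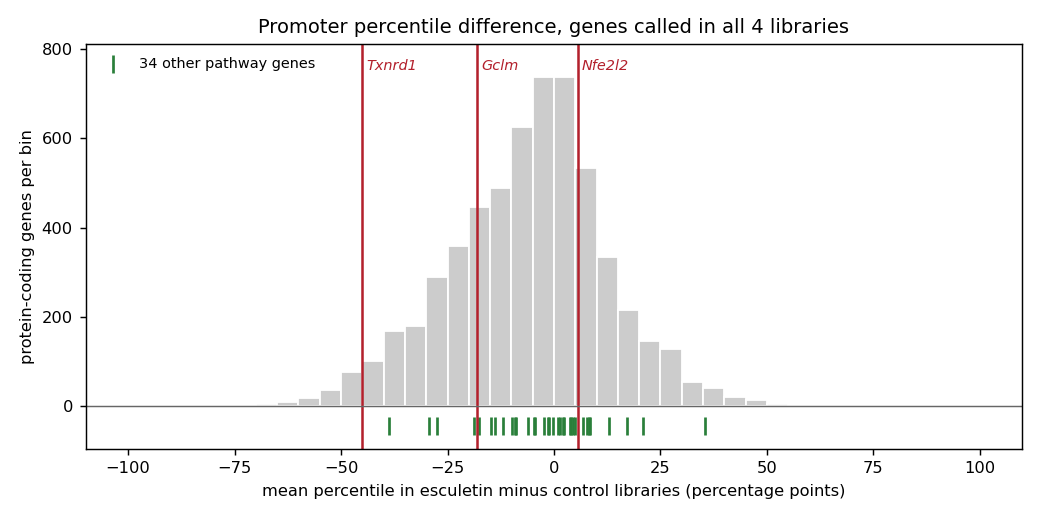
Number of protein-coding genes (vertical axis) by the mean promoter percentile in esculetin minus control libraries (horizontal axis, percentage points, bins of 5) for the 5774 genes called in all 4 libraries; red lines mark Txnrd1, Gclm and Nfe2l2 at -45.0, -18.0 and 5.57, and green ticks mark 34 other pathway genes. Most pathway ticks lie near the middle of the distribution of all genes.

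Along the whole windows, 22 and 26 peaks were called under DMSO and 6 and 14 under esculetin, with means of 24.0 ± 2.83 and 10.0 ± 5.66 (SD, n = 2). Per 1000 peaks of the list these were 1.12, 0.934, 0.691 and 1.09, so the groups overlapped once the length of the list was taken into account. By place, 10 and 11 of the control peaks and 4 and 8 of the esculetin peaks were at promoters, 4 and 5 against 2 and 3 were upstream, and 8 and 10 against 0 and 3 were inside genes. Over the windows of all protein-coding genes the share of peaks inside genes was 30.9% and 45.2% under DMSO and 13.1% and 18.8% under esculetin, beside 36.4%, 38.5%, 0% and 21.4% for the 10 genes, so the lower share under esculetin was found genome-wide. Among the 8677 strongest peaks of each list the difference of the means was -2.50 peaks rather than -14.0.

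Merged over libraries by an overlap of at least 1 bp, the peaks formed 33 regions, of which 14 were at promoters, 5 upstream, 12 in the gene body and 2 in the 10% of a gene nearest its 3′ end. Exons and introns were not assigned. All 4 libraries shared 5 of the 33 regions, beside 17.2% of the 36037 regions of the genome, and 9 were called in both controls only, beside 13.9%. No region was called in both esculetin libraries only, beside 0.832%. Of the 5 shared regions, the Nfe2l2 promoter and the Sqstm1 upstream region were higher in both esculetin libraries, and the promoters of Gclm and Txnrd1 and the Gclc upstream region were lower. Over all 6181 shared regions, 14.5% were higher and 31.1% lower, with a median difference of -4.61 points. The 19 regions outside promoters were called 12 and 15 times under DMSO and 2 and 6 times under esculetin, or 63.2%, 78.9%, 10.5% and 31.6% of them. Over the windows of all protein-coding genes 39.9%, 77.0%, 12.1% and 20.8% of 20800 such regions were called in the same libraries, and the same order across libraries held there. Without control replicate 1 the regions called in controls only rose to 16, and without esculetin replicate 1 the regions called in esculetin only rose to 3. Leaving out a library eases the rule to a call in the 1 library of the group that is left, which tends to raise such a count by construction. The share of all regions under the eased rule was not computed.

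**Figure D5:**
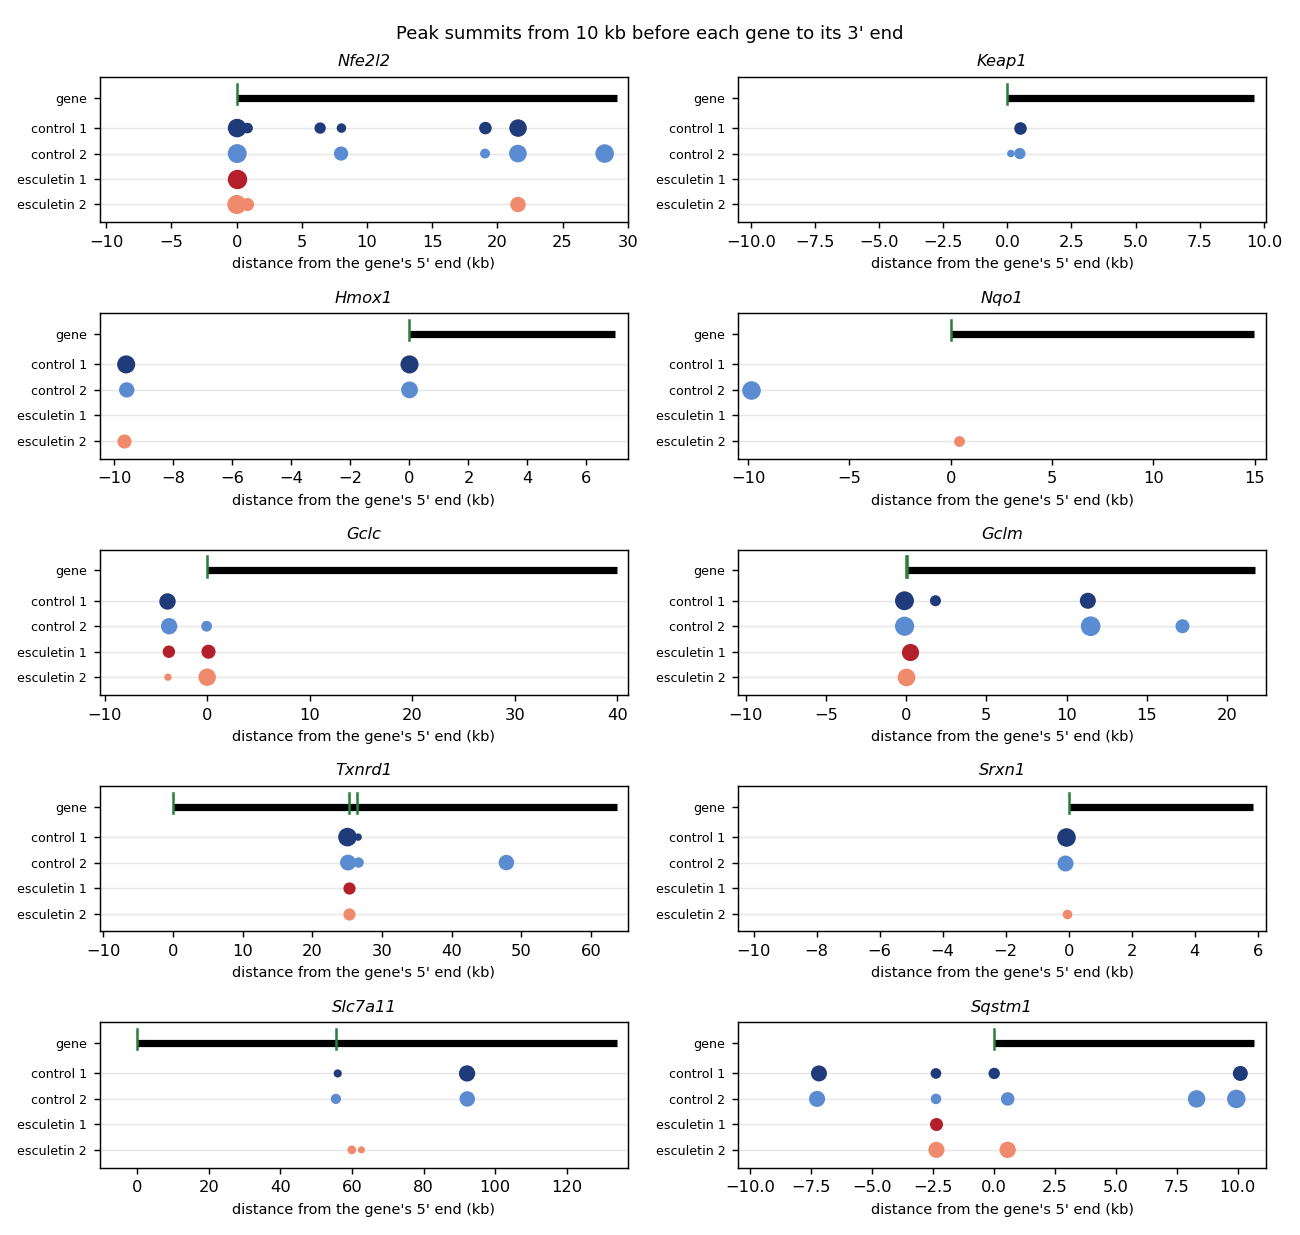
Peak summits by distance from the 5′ end of each of the 10 genes (horizontal axis, kb) in the 4 libraries (rows); the black bar is the gene, green ticks are annotated starts, and the area of a point grows with its percentile. Points inside the genes are found mostly in the control rows, and esculetin replicate 1 has 6 points in all.

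Inside Nfe2l2 the most widely shared gene-body region stood 21577 bp from the 5′ end (chr2:75682789-75683278). It had percentiles of 75.0 and 76.5 in control and 54.0 in esculetin replicate 2, with no peak in esculetin replicate 1. Regions at 8012 and 19084 bp were called in both controls only, with percentiles between 11.3 and 43.4. A region 28229 bp from the 5′ end, close to the 3′ end of Nfe2l2, was called in control replicate 2 alone, at a percentile of 86.7. Close to the 3′ end of Sqstm1 a region 9949 bp from the 5′ end was called in both controls, at 50.3 and 85.9.

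The wider pathway gave a reference for these genes. Of 61 further genes, 34 (55.7%) had a promoter peak in all 4 libraries, 3 (4.92%) in both controls only and none in both esculetin libraries only, beside 26.9%, 3.75% and 0.419% of all protein-coding genes. The number called was 52 and 50 in control and 35 and 48 in esculetin libraries, above the all-gene share in each library. Of the 34, 5 (14.7%) were higher and 7 (20.6%) lower in both esculetin libraries, 22 overlapped, and the median difference was -0.671 points. The higher and lower shares lay near and under those of all genes, 14.5% and 30.0%.

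Among partners and regulators of NRF2, 10 of 12 genes were called in all 4 libraries, with 3 higher, 2 lower and a median difference of 2.99 points. Maff, a small MAF partner of NRF2, had percentiles of 14.7 and 5.79 in control and 47.1 and 44.2 in esculetin libraries, a difference of 35.4 points. Rbx1, the RING subunit of the CUL3 ligase, was higher by 8.31 points, from 89.4 and 85.8 to 95.8 and 96.1. The scaffold Cul3 itself was lower, at 93.9 and 91.9 in control and 81.7 and 84.4 in esculetin libraries, a difference of -9.80. Btrc, the other lower gene of this list, had 82.9 and 92.3 in control and 78.0 and 73.3 in esculetin libraries, a difference of -12.0. Each of these differences, and those of the genes named next, had an exact permutation p of 0.33, the smallest that the design allows.

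In the glutathione list, 4 of 13 genes were called in all 4 libraries, of which 1 was lower, none was higher and 3 overlapped. Their median difference was 0.0822 points. The lower gene was Gpx1, a peroxidase that uses glutathione to reduce hydrogen peroxide, with percentiles of 86.4 and 83.5 in control and 32.8 and 59.6 in esculetin libraries, a difference of -38.7. Gsr, which regenerates reduced glutathione, was called in both controls only, at 49.1 and 32.5. Of 12 thioredoxin, peroxiredoxin and related genes 11 were called in all 4 libraries, with 1 higher, 3 lower and a median of -6.17 points. Prdx6 was lower, with 86.0 and 63.2 in control and 37.7 and 52.8 in esculetin libraries, a difference of -29.4. The hydrogen peroxide and superoxide scavengers Cat and Sod1 were lower by differences of -18.8 and -14.8. Txnip, which binds and inhibits thioredoxin, was higher, at 76.9 and 79.2 against 95.7 and 86.4, a difference of 13.0.

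The heme and iron list had 4 of 8 genes called in all 4 libraries, and 1 of them, the biliverdin reductase Blvrb, was higher by 4.41 points. In the NADPH supply list, 4 of 6 genes were called in all 4 libraries and every one overlapped between groups. In the drug and carbonyl metabolism list, Akr1b3, an aldose reductase, was the 1 gene of 10 called in all 4 libraries and was lower, at 76.4 and 84.1 against 55.1 and 50.7, a difference of -27.4. Nqo2, a quinone reductase related to Nqo1, was called in both controls only, at 51.0 and 70.3. Osgin1, an oxidative stress response gene, was also called in both controls only, at 44.3 and 8.80.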

How the data were processed

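Paired-end ATAC-seq reads were processed by the authors, per the labels and the methods of the study: adapters were trimmed (Trim Galore), reads were aligned to mm10 (Bowtie2), duplicates and multiply mapped reads were discarded, and peaks were called for each library (MACS2). The options of MACS2, a shift of read ends included, are not given in the sources used here. The deposited values of each peak were a display score, the fold over local background (a ratio), and -log10 p and -log10 q. They hold no read counts, so that depth per library is unknown and no interval for counting error was given.

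Groups followed the treatment in the labels. The percentile of -log10 p within a list (ties at their mean rank) was compared with an exact permutation test over the 4 libraries. The labels do not say that the libraries came from separate cultures, so p-values measure only the spread between these samples, which may be technical. Summit coverage and local background were solved from fold and p by the Poisson distribution, for peaks with -log10 p under 60. Genes, starts and promoters came from the RefSeq tables of GRCm38.p6, with strands of 3972 protein-coding genes taken by symbol from GENCODE. A listing limit was the lowest summit coverage among peaks of a library whose local background, over the genome-wide one, was within 10% of that of the site in the other libraries. Every one of the 10 genes was named, as were pathway genes called in both libraries of 1 group only and, among genes without overlap between groups, up to 5 with the largest difference in each direction, apart from a result that is not reported here. Cul3 and Btrc were also named, after their values were seen. The genes and lists were chosen with earlier results of these data known. The alternatives were other windows, ranked values, subsets of peaks, overlap rules, a replicate block and each library left out. Scripts were tested on simulated data. Python 3.11.15, pandas 2.3.3, NumPy 2.4.6 and SciPy 1.17.1 were used.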

Additional observations from a re-analysis of the deposited data

How the results depend on the processing

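The median difference over the genes called in all 4 libraries, -18.0 points, was -29.0 when promoters were ranked among the shared promoters alone, -12.6 with fold as the ranked value, -14.0 over all 10 genes with a missing peak set to 0, and 5.66 among equal numbers of top peaks, where 2 genes were left. Among equal numbers of top peaks the difference in genes with a promoter peak was 0.500 rather than -3.00, that in window peaks was -2.50 rather than -14.0, 1 region rather than 9 was called in controls only and 2 rather than 0 in esculetin only. The share of all regions with these patterns among equal numbers of top peaks was not computed, so these region counts cannot be set against the genome. When a peak had to cover 50% of its merged region to count there, 1 region was called in esculetin only. The count of genes higher in both esculetin libraries (1) was 0 with ranks among shared promoters and 0 on the scale of coverage over background, an alternative chosen after seeing the data, and 2 with a missing peak set to 0. The count of genes lower (2) was 1 with fold, 1 among equal numbers of top peaks and 6 with a missing peak set to 0. The all-gene median and the all-gene shares higher and lower were computed for the main setting only, so these alternative values have no such reference. By construction, equal numbers of top peaks remove weak peaks from the longer control lists. Setting a missing peak to 0 counts a gene called in both controls only as lower, also by construction. The cause of the changes under the alternatives was otherwise not tested. With each library left out in turn, the median ran from -20.5 to -7.97 over the 3 to 5 genes that could then be compared (-20.5 to -15.5 over the same 3 genes), the difference in genes with a promoter peak from -4.50 to -1.50, that in window peaks from -18.0 to -10.0, genes higher from 1 to 2, genes lower from 2 to 3, control-only regions from 9 to 16 and esculetin-only regions from 0 to 3. The higher count of 2 came without control replicate 1 and without esculetin replicate 1. Leaving out a library eases the rules for these counts of genes and regions, so that they tend to rise by construction. Nfe2l2 stayed higher and Gclm and Txnrd1 lower on average under every alternative that gave a value, although the groups overlapped for Nfe2l2 with ranks among shared promoters and on the coverage scale, and for Gclm that scale kept the groups apart by only 10.76 against 10.73 times the background. Titles share replicate numbers, but the names inside the esculetin lists are other numbers, so the numbers do not pair the libraries. A replicate block leaves the differences at -3.00, -18.0 and -14.0 by construction, so it was no check on them. It gave an exact sign-flip p of 0.50 for each gene called in all 4, the smallest that 2 pairs allow. With 2 libraries a group no comparison could reach a p below 0.33.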
